A study of Homo sapiens with 16 samples.

Results

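YAP1, WWTR1, TEAD1, TEAD4, LATS1, LATS2, CTGF, CYR61, ANKRD1 and AMOTL2 are 10 genes of the Hippo-YAP pathway. They were taken by gene symbol from a table of normalized counts that held 56969 Ensembl genes, and all 10 were found and passed the filter used for testing, a mean of 10 or more over all libraries, which 16081 genes passed. The libraries came from HepG2, an established human liver cancer cell line, given either HCF-1 siRNA (8 libraries), which targets the transcript of HCFC1, or control siRNA (8 libraries). Cells of both groups were transfected 2 times, 2 days apart, and RNA was taken 2 days after the second round. The labels call the libraries biological replicates and say nothing more of how the cultures were separated, so p-values measure the spread between these libraries. An siRNA lowers a transcript without deleting the gene.

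The Hippo pathway is a kinase chain that restrains cell growth. The kinases LATS1 and LATS2 phosphorylate the coactivators YAP (gene YAP1) and TAZ (gene WWTR1), which are then held in the cytoplasm or degraded. When the kinases are inactive, YAP and TAZ enter the nucleus, bind the DNA-binding TEAD proteins and raise the transcription of genes such as CTGF, CYR61 and ANKRD1. In liver the pathway is known for its control of organ size and of hepatocyte identity. Most of this control acts on phosphorylation and location of the proteins, which RNA levels do not show.

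Reads recovered per library ranged from 25098840 to 43186890 with HCF-1 siRNA and from 21030830 to 32820459 with control siRNA. HCFC1, the targeted gene, had 3682 ± 340 normalized counts with HCF-1 siRNA and 5631 ± 671 with control siRNA (mean ± SD, n = 8 each), 65.4% of the control mean, and the ranges did not overlap. The hepatocyte markers ALB, AFP, APOB and TF were abundant in both groups, with ALB at 207757 ± 20699 normalized counts with HCF-1 siRNA and 144746 ± 11975 with control siRNA. Of 9 hepatocyte markers 7 rose, among them TTR and AFP with log2 fold changes of 0.63 and 0.58, FGB fell by 0.50 and 1 did not pass, where 18.2% of all genes tested rose, and the summed level of the 9 ran from 864855 to 1033840 with HCF-1 siRNA and from 728445 to 793821 with control siRNA. Whether this shift has a part in the results below was not tested. In bulk RNA, fewer cells of a kind and less RNA per cell cannot be told apart. Of the markers of other cell types, PTPRC of blood cells reached at most 1.63 normalized counts with HCF-1 siRNA and 3.60 with control siRNA, and CD3E, KDR, TEK and THY1 were listed at 0 in all libraries. Summed levels of those lists overlapped between HCF-1 and control siRNA, at 28899 to 35143 and 27930 to 32641 for 6 blood cell markers, 94.6 to 158 and 82.0 to 160 for 4 endothelial markers found in the table, and 866 to 1485 and 917 to 1476 for 7 mesenchymal markers. Most of the blood cell sum was LYZ (31191 ± 2320 with HCF-1 siRNA and 29693 ± 1470 with control siRNA, limma adjusted p = 0.240). CD68 was also present, at 1168 ± 67.1 with HCF-1 siRNA and 1189 ± 103 with control siRNA (limma adjusted p = 0.780). The endothelial marker CDH5 had a log2 fold change of 0.30 and did not pass. Of the mesenchymal markers, COL1A1 fell by 0.56 on the log2 scale (SE 0.15, limma adjusted p = 0.00718). PDGFRB went the other way without passing (log2 fold change 0.36 ± 0.16, limma adjusted p = 0.0859), at 600 ± 178 with HCF-1 siRNA and 454 ± 75.4 with control siRNA.

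Of the 10 genes, 4 rose with HCF-1 siRNA (LATS1, LATS2, CTGF and WWTR1), 0 fell and 6 did not pass, by limma at a Benjamini-Hochberg adjusted p under 0.05 over all genes tested. Across all genes tested 36.6% passed this test, 18.2% in the higher and 18.3% in the lower direction, so a share of 40% among 10 genes is near the background. The median log2 fold change of the 10 was 0.06, beside 0.01 for all genes tested. By the size of their change, without regard to sign, the 10 lay between the 8.46 percentile (AMOTL2) and the 80.09 percentile (LATS1) of all genes tested. All 4 calls held in each of 26 alternative fits.

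**Figure D1:**
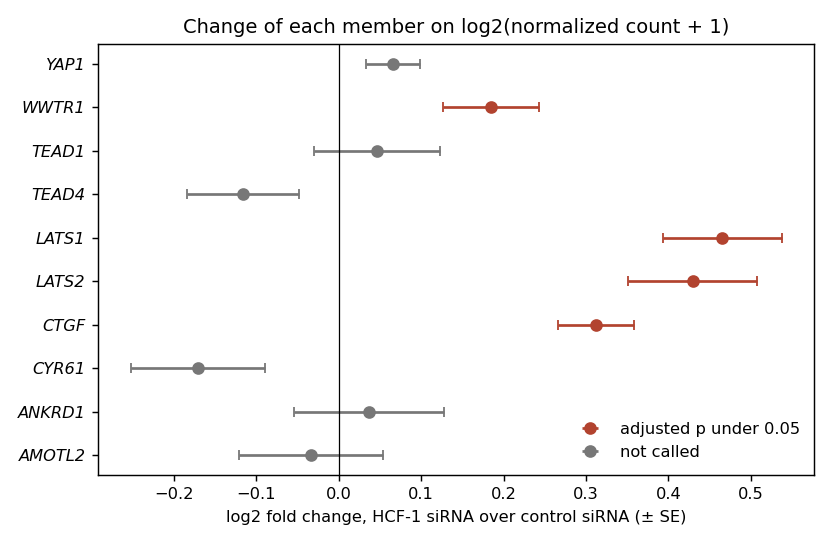
Log2 fold change of HCF-1 siRNA over control siRNA for each gene, on the log2(normalized count + 1) scale with its SE (limma, 8 libraries against 8). LATS1, LATS2, CTGF and WWTR1 lie above 0 and passed the test (red), and the other 6 (grey) did not pass.

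By fold change the inhibitory kinases LATS1 and LATS2 differed most of the 10 genes, while CTGF had the smallest adjusted p. LATS1 had 1020 to 1324 normalized counts (median 1199.5) with HCF-1 siRNA, against 749 to 991 (median 856) with control siRNA. Every HCF-1 siRNA library lay above every control library. Its mean was 1162 ± 118 with HCF-1 siRNA and 841 ± 84.1 with control siRNA, 138% of the control mean, a log2 fold change of 0.47 ± 0.07 (SE; limma adjusted p = 8.36e-05). LATS1 was 1 of 2 of the 10 genes whose groups did not overlap, where 9.82% of all genes tested had groups that did not overlap, 4.59% with HCF-1 siRNA higher and 5.23% with it lower.

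LATS2, the paralog of LATS1 and itself known as a YAP target gene, had 1229 to 1559 normalized counts (median 1364) with HCF-1 siRNA and 901 to 1325 (median 983) with control siRNA. The groups overlapped through control siRNA replicate 7 at 1325, and 5 of 8 HCF-1 siRNA libraries lay above all controls. LATS2 rose by a log2 fold change of 0.43 ± 0.08 (limma adjusted p = 3.73e-04), 1381 ± 115 with HCF-1 siRNA against 1031 ± 149 with control siRNA. The ratio of LATS1 to LATS2 reads within a library, which does not depend on scaling between libraries, was 0.84 with HCF-1 siRNA and 0.82 with control siRNA (geometric means). The log2 difference of this ratio was 0.04 ± 0.11 (SE; two-sided exact permutation p = 0.745), so a difference between the rises of the 2 kinase genes was not detectable. The ratio of LATS1 to YAP1, added after values were seen, was 0.204 with HCF-1 siRNA and 0.154 with control siRNA. It was higher than the control mean in 8 of 8 HCF-1 siRNA libraries. Its log2 difference was 0.40 ± 0.08 (two-sided exact permutation p = 6.22e-04, adjusted over 2 added ratios p = 0.00124). The pair was picked with the rise of LATS1 known, so this p is not evidence separate from that rise.

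The coactivators moved less. YAP1 had 5517 to 6070 normalized counts (median 5601) with HCF-1 siRNA and 5165 to 5748 (median 5387) with control siRNA. The groups overlapped, although 8 of 8 HCF-1 siRNA libraries lay above the control mean. Its means were 5674 ± 183 and 5423 ± 236 for HCF-1 and control siRNA, and the log2 fold change of 0.07 ± 0.03 did not pass (limma adjusted p = 0.123). Its coefficient of variation was 3.23% with HCF-1 siRNA, the lowest of the 10 genes in that group, and 4.36% with control siRNA, where that of CTGF was lower at 3.55%.

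WWTR1, which encodes TAZ, had 3105 to 4313 normalized counts (median 3564) with HCF-1 siRNA and 2902 to 3562 (median 3075) with control siRNA. The groups overlapped, with 4 of 8 HCF-1 siRNA libraries above all controls. WWTR1 rose by a log2 fold change of 0.18 ± 0.06 (limma adjusted p = 0.0194), 3584 ± 369 with HCF-1 siRNA against 3145 ± 199 with control siRNA. A call for WWTR1 and none for YAP1 does not show that the 2 differ. Their ratio YAP1 to WWTR1 was 1.59 with HCF-1 siRNA and 1.73 with control siRNA, a log2 difference of -0.12 ± 0.07 that did not pass (two-sided exact permutation p = 0.111, adjusted over 4 ratios p = 0.223).

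Antisense genes overlap exons of both coactivator genes, and of LATS1 and CTGF, in GENCODE release 29. The library kit marks strand, but whether the authors counted by strand is not stated in the labels, so reads of such a pair cannot be told apart. WWTR1-AS1, on the strand opposite to WWTR1, was listed at 1.03 to 36.6 normalized counts with HCF-1 siRNA and 5.33 to 61.1 with control siRNA. It was thus far below WWTR1 in every library. RP11-864G5.3, opposite to YAP1, had 329 ± 42.0 normalized counts with HCF-1 siRNA and 273 ± 57.9 with control siRNA (log2 fold change 0.29 ± 0.13, limma adjusted p = 0.0924). WWTR1-IT1, an intronic gene within WWTR1, reached at most 5.17 normalized counts with HCF-1 siRNA and 3.60 with control siRNA, and LATS2-AS1 was listed at 0 throughout. The antisense gene RP11-69I8.3, opposite to CTGF, reached at most 20.6 normalized counts with HCF-1 siRNA and 15.3 with control siRNA. RPL39P5, on the strand of AMOTL2, reached at most 8.28 with HCF-1 siRNA and 54.6 with control siRNA. AL358852.1, opposite to LATS1, had no deposited values, so its level beside LATS1 is not known.

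Neither TEAD gene passed. TEAD1 had 2054 to 2618 normalized counts (median 2249) with HCF-1 siRNA and 1883 to 2982 (median 2149) with control siRNA, so that all HCF-1 siRNA libraries lay within the control range. The top of that range was control siRNA replicate 3. Its log2 fold change was 0.05 ± 0.08 (limma adjusted p = 0.667).

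TEAD4 had 1551 to 2286 normalized counts (median 1992) with HCF-1 siRNA and 1943 to 2310 (median 2138) with control siRNA. Of the HCF-1 siRNA libraries, 2 lay below all controls and none above. Its log2 fold change was -0.12 ± 0.07 (limma adjusted p = 0.198). The ratio of TEAD1 to TEAD4 was 1.17 with HCF-1 siRNA and 1.05 with control siRNA (log2 difference 0.16 ± 0.12, two-sided exact permutation p = 0.207, adjusted over 4 ratios p = 0.275).

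**Figure D2:**
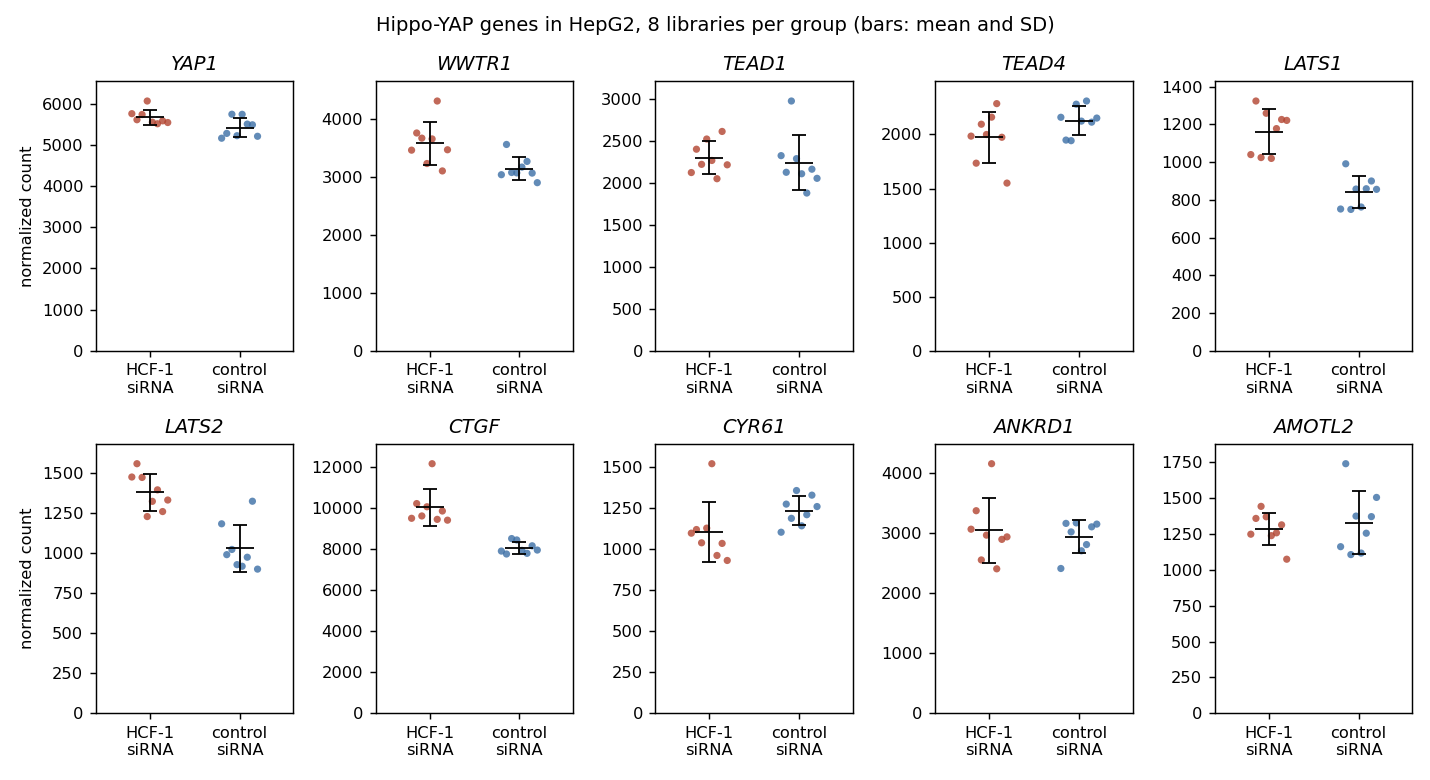
Normalized counts of the 10 genes, each point a library, with HCF-1 siRNA at the left and control siRNA at the right of each panel, bars for mean and SD, and each axis starting at 0. For LATS1 and CTGF all HCF-1 siRNA libraries lie above all controls, and for CTGF, CYR61 and ANKRD1 HCF-1 siRNA replicate 5 is the highest library of either group.

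CTGF, CYR61 and ANKRD1 are textbook target genes of YAP and TEAD. CTGF and CYR61 encode secreted matrix-associated proteins of the CCN family, and ANKRD1 an ankyrin repeat protein of nucleus and sarcomere. RefSeq promoter windows (build GRCh38.p14, 250 bases before to 50 after the transcription start) were found for 7 of the 10 genes, as 10 windows, and CYR61, TEAD1 and TEAD4 were not searched. They were searched on both strands for GGAATG, the core letters bound by TEAD proteins, which read CATTCC on the opposite strand. At least 1 match was found in 14.03% of all 35116 windows of this length, at least 2 in 1.37% and at least 3 in 0.128%. The CTGF window (chr6:131951323-131951622, minus strand) held 3 and the ANKRD1 window (chr10:90921038-90921337, minus strand) held 2. Both are printed whole because they held at least 2 matches, 5′ to 3′ along the gene, with each match in capitals. These windows were picked by that count, so nothing is read from it against the shares of all windows.
CTGF: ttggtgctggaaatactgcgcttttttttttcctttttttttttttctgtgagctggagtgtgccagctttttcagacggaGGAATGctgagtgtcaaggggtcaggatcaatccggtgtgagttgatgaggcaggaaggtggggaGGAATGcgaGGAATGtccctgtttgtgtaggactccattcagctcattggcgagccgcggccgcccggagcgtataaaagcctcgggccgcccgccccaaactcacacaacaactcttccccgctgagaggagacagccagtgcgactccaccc
ANKRD1: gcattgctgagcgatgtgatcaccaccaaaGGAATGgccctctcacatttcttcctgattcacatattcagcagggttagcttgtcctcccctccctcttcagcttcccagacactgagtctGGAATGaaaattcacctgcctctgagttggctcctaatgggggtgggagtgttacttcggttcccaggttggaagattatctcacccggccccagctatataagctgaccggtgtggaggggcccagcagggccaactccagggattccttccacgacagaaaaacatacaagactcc

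Counted from the transcription start, with bases before it negative, the matches in the CTGF window began at -169, -104 and -95, and those in the ANKRD1 window at -220 and -128. YAP1, LATS2 and AMOTL2 had 1 match each, shown with 12 bases on either side, at chr11:102110273-102110302 (plus strand), chr13:21061560-21061589 (minus strand) and chr3:134374499-134374528 (minus strand).
YAP1: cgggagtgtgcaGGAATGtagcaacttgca
LATS2: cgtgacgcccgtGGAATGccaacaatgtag
AMOTL2: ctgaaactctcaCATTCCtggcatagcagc

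The AMOTL2 match was in the window of its second listed start and on the opposite strand, and the other AMOTL2 window had none. No match was found in the windows of WWTR1 or LATS1, each with 2 starts. Thus, of the 4 genes that rose, CTGF and LATS2 held the letters in these windows and LATS1 and WWTR1 did not. YAP1, ANKRD1 and AMOTL2, which did not pass the test of expression, each held them in at least 1 window. TGACTCA, an AP-1 site, and ACTACAA, core letters of the element bound by the HCF-1 partners ZNF143 and THAP11, were in 0 of the 10 windows, against 4.95% and 2.77% of all windows. These are matches of letters only, and TEAD binding was not measured.

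**Figure D3:**
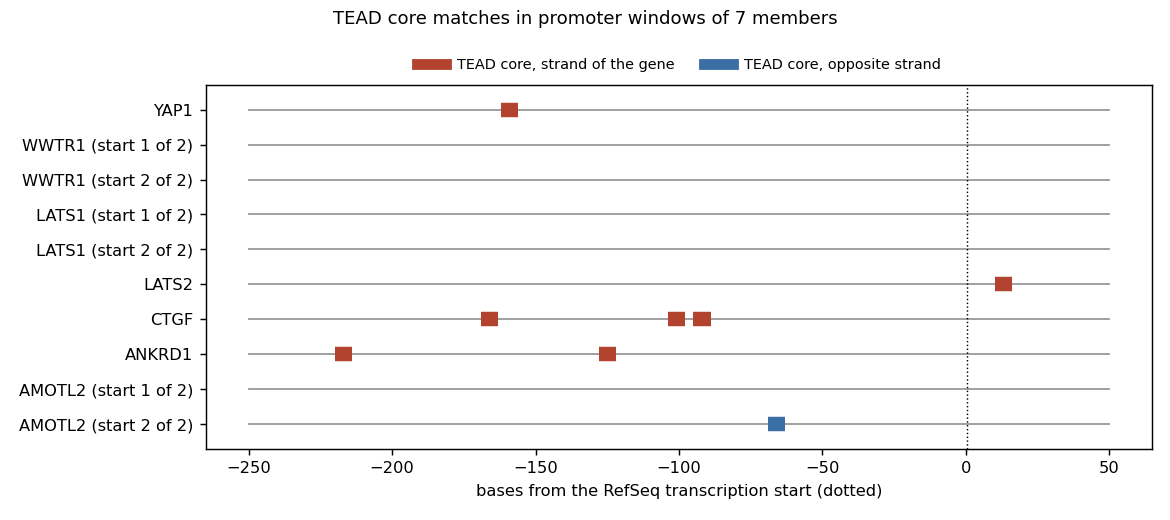
Positions of the TEAD core GGAATG in 10 RefSeq promoter windows of 7 genes, drawn as bases from the transcription start, with matches on the strand of the gene in red and on the opposite strand in blue. CTGF has 3 matches and ANKRD1 has 2, all upstream of the start, and the match of LATS2 begins at base 10 after it.

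CTGF had 9427 to 12182 normalized counts (median 9754) with HCF-1 siRNA and 7777 to 8529 (median 7961) with control siRNA. The groups did not overlap. CTGF rose by a log2 fold change of 0.31 ± 0.05 (limma adjusted p = 4.96e-05), 10052 ± 910 with HCF-1 siRNA against 8075 ± 287 with control siRNA, which is 124% of the control mean. Without HCF-1 siRNA replicate 5, its highest library, the log2 fold change was 0.27 (limma adjusted p = 6.37e-06, with adjusted p from 1.90e-09 by DESeq2 to 6.61e-04 by limma over the alternatives).

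CYR61 had 930 to 1519 normalized counts (median 1067) with HCF-1 siRNA and 1102 to 1355 (median 1233) with control siRNA. Of the HCF-1 siRNA libraries 5 lay below all controls, and replicate 5 lay above all of them. The log2 fold change was -0.17 ± 0.08 and did not pass (limma adjusted p = 0.111), at 1103 ± 182 with HCF-1 siRNA and 1231 ± 88.3 with control siRNA. This call depended on 1 library. Without HCF-1 siRNA replicate 5, CYR61 fell by 0.24 on the log2 scale (limma adjusted p = 0.00468, and 0.00468 to 0.204 over the alternatives).

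ANKRD1 had 2402 to 4148 normalized counts (median 2947) with HCF-1 siRNA and 2407 to 3165 (median 3057) with control siRNA, at 3039 ± 538 and 2937 ± 275. Replicate 5 was again the highest HCF-1 siRNA library. The log2 fold change was 0.04 ± 0.09 (limma adjusted p = 0.782), and -0.03 without that library. AMOTL2, an angiomotin family member that binds YAP and is also a YAP target gene, had 1072 to 1440 normalized counts (median 1284) with HCF-1 siRNA and 1105 to 1737 (median 1311) with control siRNA. Its log2 fold change was -0.03 ± 0.09 (limma adjusted p = 0.790).

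The 2 CCN genes differed in their response. The ratio of CTGF to CYR61 within a library ran from 8.02 to 10.1 with HCF-1 siRNA and from 6.11 to 7.19 with control siRNA. All HCF-1 siRNA libraries lay above all controls, replicate 5 included. The geometric means were 9.18 and 6.57, a log2 difference of 0.48 ± 0.05 (SE; two-sided exact permutation p = 1.55e-04, the smallest that the splits can give, adjusted over 4 ratios p = 6.22e-04). Without 1 library at a time, this difference ran from 0.463 to 0.511. The ratio of CTGF to ANKRD1, added after values were seen, was 3.34 with HCF-1 siRNA and 2.76 with control siRNA. It was higher than the control mean in 8 of 8 HCF-1 siRNA libraries. Its log2 difference was 0.28 ± 0.07 (two-sided exact permutation p = 0.00218). This pair was also picked with the rise of CTGF known, so its p is not evidence separate from that rise.

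The order of levels among the 10 genes was read from normalized counts per kilobase of merged exons in GENCODE release 29. CTGF was highest, at 4298 ± 389 per kilobase with HCF-1 siRNA and 3452 ± 123 with control siRNA. ANKRD1 was second, at 1536 ± 272 and 1484 ± 139, and neither range overlapped that of a neighbour. YAP1 (901 ± 29.1 with HCF-1 siRNA and 861 ± 37.6 with control siRNA) and TEAD4 (868 ± 103 and 937 ± 58.7) came next with overlapping ranges, YAP1 above TEAD4 with HCF-1 siRNA and below it with control siRNA. They were followed by CYR61 (449 ± 74.3 and 502 ± 36.0) and WWTR1 (426 ± 43.9 and 374 ± 23.6), whose ranges overlapped with HCF-1 siRNA and not with control siRNA. LATS2 (248 ± 20.6 and 185 ± 26.6), TEAD1 (224 ± 19.0 and 218 ± 31.9) and AMOTL2 (215 ± 18.6 and 222 ± 36.3) lay close together. With HCF-1 siRNA LATS2 was at the top of these 3, and with control siRNA at the bottom of them, with overlap between neighbours in each group. LATS1 was lowest, at 134 ± 13.7 per kilobase with HCF-1 siRNA and 97.3 ± 9.73 with control siRNA.

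CYR61 and ANKRD1 varied together between libraries of the same group. After the group means were removed, CYR61 and ANKRD1 had a Pearson r of 0.861 (permutation p = 2.40e-04, adjusted over 45 pairs p = 0.0108) and a Spearman rho of 0.835 (permutation p = 1.60e-04, adjusted p = 0.00720) over 16 libraries. The r was 0.861 within the HCF-1 siRNA libraries and 0.876 within the control siRNA libraries. Without the 2 libraries farthest from the median of CYR61 it was 0.855, and without HCF-1 siRNA replicate 5 alone it was 0.726. This was the 1 pair of 45 that passed after adjustment. No pair passed without HCF-1 siRNA replicate 5 or without control siRNA replicate 1, and the number was 3 without control siRNA replicate 2 and 2 without control siRNA replicate 3.

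CTGF followed both genes less closely outside 1 library. Its r with CYR61 was 0.849 (Spearman rho 0.659, permutation p = 0.00351 for r and 0.00784 for rho, adjusted p = 0.0783 and 0.121), and its r with ANKRD1 was 0.757 (Spearman rho 0.653, permutation p = 0.00522 and 0.00809, adjusted p = 0.0783 and 0.121). Within the control siRNA libraries these were 0.327 and 0.357, and within the HCF-1 siRNA libraries 0.954 and 0.863. Without HCF-1 siRNA replicate 5 they were 0.52 and 0.471 over the remaining libraries, and without the 2 libraries farthest from the median of CTGF 0.679 and 0.493. Both r values were therefore smaller without replicate 5, and they stayed positive. None of 20 relations of the 10 genes with HCFC1 or with recovered reads passed after adjustment (by Pearson or Spearman permutation tests, with the smallest unadjusted permutation p at 0.0477, for the Spearman rho of -0.515 between LATS1 and HCFC1).

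**Figure D4:**
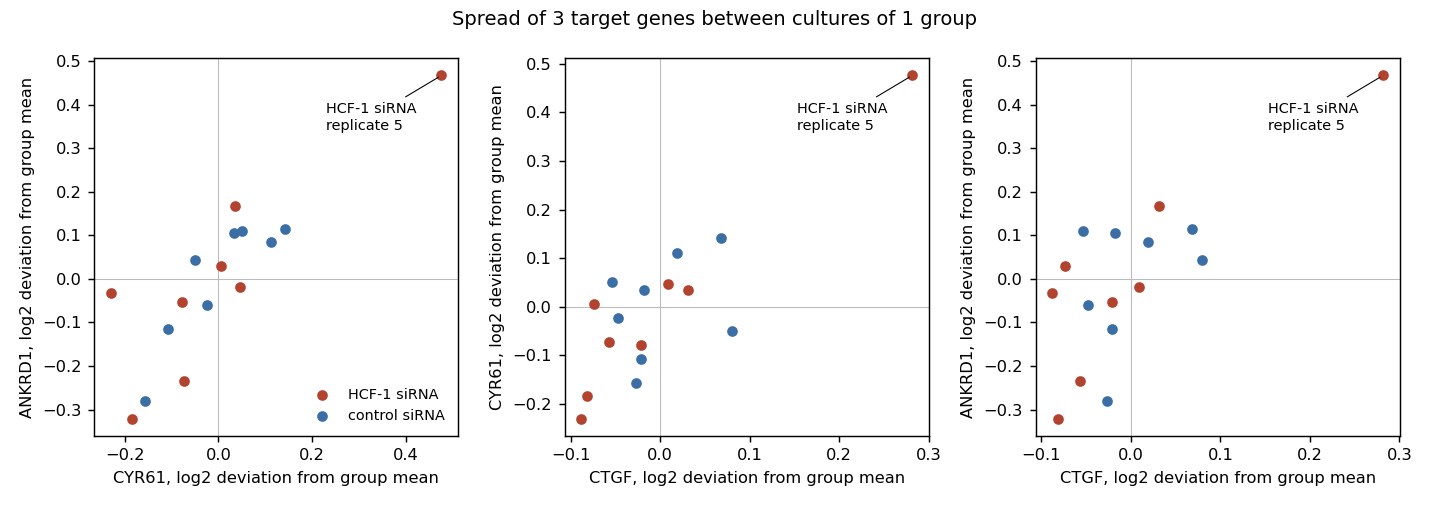
Deviations of CYR61, ANKRD1 and CTGF from their group means in each of 16 libraries, on the log2(normalized count + 1) scale, with HCF-1 siRNA in red and control siRNA in blue. HCF-1 siRNA replicate 5 is at the upper right in every panel, and the other libraries follow a common line most clearly for CYR61 and ANKRD1.

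Among 11468 other genes with a mean of 100 or more, those whose deviations were most like those of CTGF by Pearson r over the 16 libraries were MATN3 (0.866), CTSH (0.862), CYR61 (0.849), TNFRSF21 (0.816) and SERPINE2 (0.814), and ANKRD1 ranked 7. Without HCF-1 siRNA replicate 5 the r of these 5 genes was 0.481, 0.586, 0.52, 0.621 and 0.593. In that library MATN3 had 10588 normalized counts, against 8402 to 8747 in the other HCF-1 siRNA libraries, and CTSH 7619, against 6455 to 6930.

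Upstream of LATS1 and LATS2, 3 of 15 tested genes of the Hippo kinase arm rose, 1 fell and 11 did not pass. That is 26.7% passing, where 36.6% of all genes tested did. The number passing ran from 3 to 5 over 26 alternatives, and nothing is read from this share among 15 genes. The median log2 fold change of the 15 genes was 0.16, beside 0.01 for all genes tested. WWC2, a member of the KIBRA scaffold family, had 3397 to 3925 normalized counts with HCF-1 siRNA and 2387 to 3004 with control siRNA, without overlap, and rose by 0.42 ± 0.05 on the log2 scale (limma adjusted p = 3.48e-06). TAOK2, a kinase that activates the chain, rose by 0.25 ± 0.05 (limma adjusted p = 0.00109), at 2679 ± 210 with HCF-1 siRNA and 2257 ± 130 with control siRNA. RASSF1, a scaffold of the Hippo kinases, rose by 0.25 ± 0.08 (limma adjusted p = 0.0149), at 305 ± 29.8 and 255 ± 22.8. The call of RASSF1 was lost without a filter on low values (limma, edgeR and DESeq2 adjusted p 0.00392 to 0.0575 over the alternatives). NF2, which encodes the scaffold merlin, fell by 0.25 on the log2 scale (SE 0.08, limma adjusted p = 0.0160), at 1157 ± 158 with HCF-1 siRNA and 1364 ± 80.7 with control siRNA. The Hippo kinases themselves, STK3 (0.01 ± 0.12) and STK4 (0.18 ± 0.08), did not pass (limma adjusted p = 0.974 and 0.0982).

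Of 17 genes for proteins that bind, modify or hold YAP and its kinases, 2 rose, 7 fell and 8 did not pass, which is 52.9% passing. Their median log2 fold change was -0.08. Of all genes tested 36.6% passed and 18.3% fell, and with a filter at a mean of 50, 5412 of 12729 genes passed. The list was chosen with earlier results of these data known, so nothing is read from its share against these. Genes of 14-3-3 proteins made up most of those that fell, 6 of 7. These proteins hold phosphorylated YAP in the cytoplasm and bind many other phosphoproteins. The subgroup was singled out after values were seen, and nothing is read from it against the 18.3% of all genes. YWHAQ had 11191 to 12967 normalized counts with HCF-1 siRNA and 14078 to 15044 with control siRNA, and fell by 0.27 on the log2 scale (SE 0.03, limma adjusted p = 3.28e-06). YWHAZ fell by 0.25 (SE 0.03, limma adjusted p = 1.63e-05), at 11544 ± 503 and 13761 ± 593, and SFN by 0.56 (SE 0.07, limma adjusted p = 8.55e-06), at 362 ± 34.5 and 534 ± 43.1, and for these 3 genes the groups did not overlap. YWHAB, YWHAG and YWHAH also fell, with log2 fold changes of -0.20, -0.10 and -0.19, and YWHAE (-0.08 ± 0.03) did not pass (limma adjusted p = 0.0678). YWHAE was called lower in 3 of 26 alternatives, total-count scaling, edgeR and without control siRNA replicate 1 (limma, edgeR and DESeq2 adjusted p 0.0113 to 0.148 over all).

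BTRC, a receptor subunit of the ubiquitin ligase that acts on phosphorylated YAP, fell by 0.34 (SE 0.10, limma adjusted p = 0.0106), at 800 ± 81.8 with HCF-1 siRNA and 1018 ± 161 with control siRNA. AJUBA, a LIM protein that binds LATS kinases, rose by 0.23 ± 0.05 (limma adjusted p = 8.19e-04), at 7789 ± 552 and 6640 ± 359. CSNK1E, a casein kinase, rose by 0.24 ± 0.06 (limma adjusted p = 0.00256). Of the other TEAD and VGLL genes, TEAD3 alone of 4 tested passed (0.19 ± 0.07, limma adjusted p = 0.0334), at 1927 ± 206 with HCF-1 siRNA and 1682 ± 140 with control siRNA, with a list median of 0.14. It did not pass in 12 of 26 alternatives, which included leaving out HCF-1 siRNA replicate 1, 3, 5 or 6 or control siRNA replicate 3, 4, 5 or 8 (limma, edgeR and DESeq2 adjusted p 0.00823 to 0.0683 over the alternatives).

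Among 22 tested genes of a wider list of YAP targets, 6 rose, 3 fell and 13 did not pass, which is 40.9% passing where 36.6% of all genes did. Their median log2 fold change was 0.09. Those that rose included IGFBP3 (0.62 ± 0.15, limma adjusted p = 0.00371), which encodes a binding protein of insulin-like growth factors, F3 (0.54 ± 0.12, limma adjusted p = 0.00140), tissue factor, and the exchange factor genes DOCK5 (0.43 ± 0.13, limma adjusted p = 0.0193) and ARHGEF17 (0.39 ± 0.10, limma adjusted p = 0.00581). F3 had 191 to 307 normalized counts with HCF-1 siRNA and 130 to 215 with control siRNA. AXL, a receptor tyrosine kinase, fell by 0.37 (SE 0.09, limma adjusted p = 0.00462), at 547 ± 71.1 with HCF-1 siRNA and 710 ± 98.9 with control siRNA. EDN1, endothelin, fell by 0.35 (SE 0.11, limma adjusted p = 0.0242), and lost its call without control siRNA replicate 2 and without a filter on low values (adjusted p from 0.0140 by DESeq2 to 0.0571 by limma over the alternatives). The other CCN family genes were below the filter, WISP3 at no more than 14.5 normalized counts with HCF-1 siRNA and 18.6 with control siRNA.

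CTGF and CYR61 also respond to the serum response factor SRF, and of 12 genes of that list 1 rose, 5 fell and 6 did not pass, which is 50% passing. Their median log2 fold change was -0.20. Of all genes tested 36.6% passed and 18.3% fell, and with a filter at a mean of 50, 5412 of 12729 genes passed. This list too was chosen with earlier results known, so nothing is read from its share against these. TAGLN, transgelin, had 1514 to 2034 normalized counts with HCF-1 siRNA and 2609 to 3560 with control siRNA and fell by 0.83 (SE 0.07, limma adjusted p = 1.44e-07). CNN1, calponin, fell by 0.98 (SE 0.21), MYL9, a myosin light chain, by 0.50 (SE 0.07), and the actin genes ACTB and ACTG1 by 0.40 (SE 0.04) and 0.29 (SE 0.04), all on the log2 scale with limma adjusted p from 1.98e-06 to 0.00144. TPM2, a tropomyosin of low level here, rose by 1.22 ± 0.21 (limma adjusted p = 2.62e-04), at 84.4 ± 17.5 with HCF-1 siRNA and 37.5 ± 15.5 with control siRNA. SRF itself did not pass (-0.05 ± 0.05, limma adjusted p = 0.463).

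**Figure D5:**
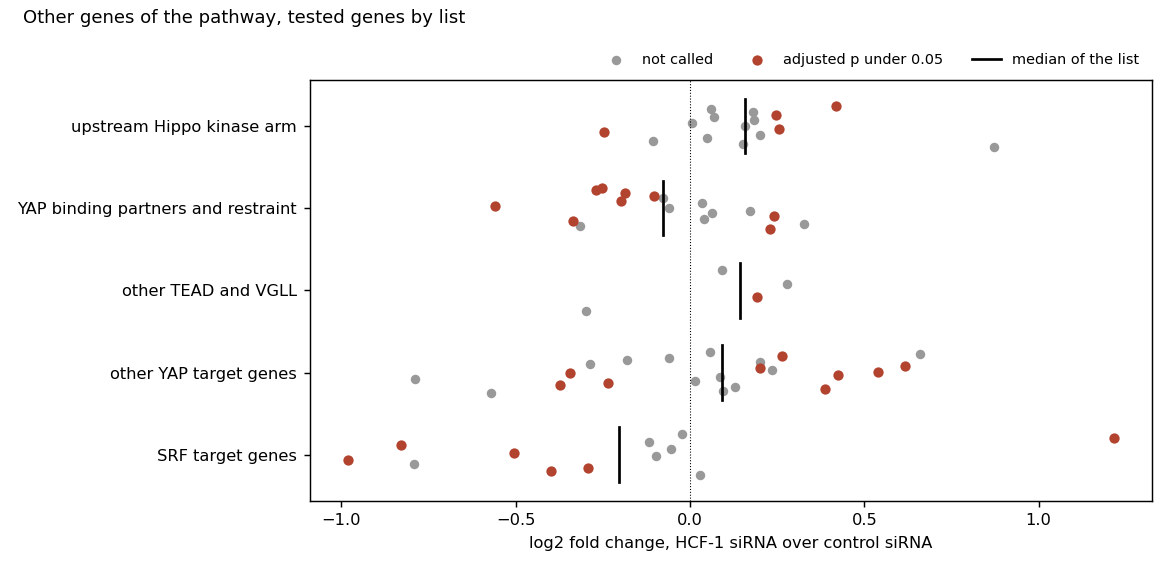
Each point is a tested gene of 5 lists by its log2 fold change, HCF-1 siRNA over control siRNA, red where the limma adjusted p was under 0.05 and grey otherwise, with a black bar at each list's median. The medians run from -0.20 for SRF target genes to 0.16 for the upstream Hippo kinase arm, and every list holds genes on both sides of 0.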

How the data were processed

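Normalized counts, a signal value for each Ensembl gene in each library, were deposited by the authors. The submitters' processing notes name cutadapt 1.4.2, featureCounts 1.4.4, STAR 2.4.1d and DESeq2 1.16.1, and the build hg19. Strand setting, annotation release and filters were not given in the sources used here. Whole reads were recovered from the step between low values in each library (100% of values whole within 0.001 read). All value columns were used, 1 of them matched by a name that lacks a digit of its title.

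HCF-1 siRNA was compared with control siRNA with limma 3.58.1 (R 4.3.3; eBayes run with its trend and robust settings) on log2(normalized count + 1), where the mean was 10 or more, with Benjamini-Hochberg adjustment over 16081 genes. The pseudocount understates changes of low genes. Ratios had exact permutation tests over all splits, and correlations 100000 permutations within groups. The fit was tested on simulated data, where it called 54% of 50 genes changed 1.25-fold and 100% of 50 genes changed 1.5-fold. A change as small as 1.25-fold can thus go uncalled. The spread of the simulated libraries was set by a formula and not taken from these data, so these shares may differ here. On recovered reads edgeR 4.0.16 called 5853 genes and DESeq2 1.42.0 called 6258, against 5879 by limma. Other alternatives were pseudocounts, filters, scalings, array weights, a replicate block and each library left out. The relations with HCFC1 and depth, the promoter search and the ratios LATS1 to YAP1 and CTGF to ANKRD1 were added after seeing the data.

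The members and lists were chosen with earlier results of these data known. Named genes were the 10 genes, HCFC1, antisense or intronic partners, the 5 genes most like CTGF, and in every list the called genes with the largest changes (at most 6, with a mean of 50 or more in either group), or the member of highest mean where none passed. YWHAB, YWHAE, YWHAG, YWHAH, STK3, STK4, SRF, TEAD2, CD68, PDGFRB and the markers listed at or near 0 were named outside this rule. Exon lengths came from GENCODE release 29 by Ensembl identifier, and promoter sequences from RefSeq on GRCh38.p14, another build than that of the counts.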

Additional observations from a re-analysis of the deposited data

Results flagged for a closer look

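In 15 of 112 groups of 8 values, over 51 named genes and 6 ratios, 1 library lay apart from the rest, going by the distance to its closest neighbour as a share of the group's range. Chance picks about 1 in 20 groups. The 112 groups are not independent, since ratios share genes with other groups and some genes were named for their likeness to CTGF. Nothing is therefore read from the count against that share.

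HCF-1 siRNA replicate 5 stood high for CTGF (12182 normalized counts), CYR61 (1519, where the others of its group spanned 930 to 1127), MATN3 (10588) and CTSH (7619). MATN3 and CTSH were named for their likeness to CTGF over all libraries, this one included. Their Pearson r with CTGF went from 0.866 to 0.481 and from 0.862 to 0.586 without it, so their height here is not separate evidence. Without HCF-1 siRNA replicate 5 CYR61 passed the test as lower, as given above. HCF-1 siRNA replicate 4 was high for YAP1 (6070, others 5517 to 5762).

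Control siRNA replicate 3 was high for TEAD1 (2982, others 1883 to 2329) and for the log2 ratio of TEAD1 to TEAD4 (0.62, others -0.29 to 0.13). Control siRNA replicate 2 was low for the log2 ratio of YAP1 to WWTR1 (0.57, others 0.75 to 0.90) and high for DOCK5 (2539 normalized counts, others 1324 to 1853). WWTR1-AS1 was high in HCF-1 siRNA replicate 6 (36.6, others 1.03 to 17.1) and in control siRNA replicate 6 (61.1, others 5.33 to 21.2). TPM2 was high in control siRNA replicate 6 (71.3, others 17.3 to 41.6) and CDH5 in control siRNA replicate 1 (144, others 75.4 to 94.4). WISP3, below the filter, was high in HCF-1 siRNA replicate 2 (14.5, others 0.877 to 6.17) and in control siRNA replicate 7 (18.6, others 1.06 to 8.51).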

How the results depend on the processing

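The count of the 10 genes called higher was 4 in all 26 alternatives, and the number of genes called ran from 5163 to 6258. The count called lower was 0 except without 1 library, HCF-1 siRNA replicate 5 (range 0 to 1, by CYR61). The replicate block called 5484 genes and changed none of the 10 calls. Libraries of the same number did not deviate together (r from -0.11 to 0.177 over 8 pairs), and 1 of 8 HCF-1 siRNA libraries correlated best with the control library of its own number. The count for the other TEAD and VGLL genes was 0 with no filter, with upper-quartile scaling and with total-count scaling, and 0 to 1 with 1 library left out, through TEAD3. With the replicate block it was 1 but for another gene and direction, since TEAD3 lost its call and TEAD2 (log2 fold change -0.30) was called lower. With 1 library left out, the log2 difference of the LATS1 to LATS2 ratio ran from -0.0163 to 0.0774, the log2 fold change of ANKRD1 from -0.0298 to 0.0827 and that of AMOTL2 from -0.0693 to 0.0239, none of them past the threshold. The number of correlated pairs ran from 0 to 3 with 1 library left out, being 0 without HCF-1 siRNA replicate 5 or control siRNA replicate 1. The CTGF to CYR61 difference passed in all 18 alternatives. Counting depth limits the genes at under 20 normalized counts, such as WWTR1-AS1 and WISP3.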
